A study of Mus musculus with 8 samples.

Results

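Transcripts of the aryl hydrocarbon receptor (AhR) pathway were followed in mouse lung after instillation of carbon nanotubes: the receptor gene Ahr, the gene of its repressor Ahrr, and the target genes Cyp1a1, Cyp1b1, Tiparp, Nqo1 and Aldh3a1. They were found as every probe set of the array whose single gene symbol was 1 of these 7 names, which gave 12 probe sets among 45037, and 7 of 18191 genes with a probe set of 1 symbol. Of the 7 genes, 6 were bright enough to be tested, among 13853 genes tested in all. The probe set that stands for a gene was chosen by its mean signal over the 8 arrays, the only measured value the rule used; the names come from known roles in the pathway. The list was drawn up with earlier results of these data known, among them the low signal of Cyp1a1 in nanotube-treated lungs on day 7. The tests of its genes below are therefore not independent evidence, least of all of that direction.

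The lungs came from male ICR mice, an outbred stock, 5 to 6 weeks old in the sample labels and 6 weeks old in the series' design text. All mice had a single intratracheal instillation of 50 µl of a surfactant solution, 0.1% Pluronic F-68 (PF68). In the SWCNT groups the liquid carried 0.5 mg of single-walled carbon nanotubes; in the PF68 groups it carried none, so the surfactant and the instillation are common to all 4 groups. After 1 day or 7 days, RNA from lobe 1 of the right lung was hybridized to single-colour Affymetrix arrays, 2 per treatment at each time. The labels call these biological replicates without naming animals, so the p-values measure only how far these arrays differ, possibly for technical reasons, and precision is limited by having 2 per group. There were no mice without instillation.

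AhR is a ligand-activated transcription factor of the cytoplasm. When it binds planar aromatic compounds such as dioxins, combustion products or tryptophan metabolites, it moves to the nucleus, pairs with the protein ARNT and binds xenobiotic response elements near its target genes. Cyp1a1 is the classical target and is widely used as a readout of receptor activity; in lung its enzyme is found in endothelium and in club cells, the secretory cells of the airway. The repressor AHRR and the enzyme TIPARP are themselves induced by the receptor and restrain it.

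The sequence that such an element carries is short, and 3 promoters are shown because Cyp1a1 had the largest differences between treatments on each day, Tiparp moved differently, and the promoter of Ahrr held the most copies. RefSeq (GRCm38.p6) promoters were matched for 5 of the 7 genes, Ahrr, Cyp1a1, Cyp1b1, Tiparp and Nqo1, and the 250 bases before each annotated start were searched for the core GCGTG on both strands (CACGC on the other strand). The sequences are given 5′ to 3′ on the strand of the gene, at chr9:57697363-57697612 (plus strand) for Cyp1a1, chr3:65528197-65528446 (plus strand) for Tiparp and chr13:74292332-74292581 (minus strand) for Ahrr, with the cores in capitals.
Cyp1a1: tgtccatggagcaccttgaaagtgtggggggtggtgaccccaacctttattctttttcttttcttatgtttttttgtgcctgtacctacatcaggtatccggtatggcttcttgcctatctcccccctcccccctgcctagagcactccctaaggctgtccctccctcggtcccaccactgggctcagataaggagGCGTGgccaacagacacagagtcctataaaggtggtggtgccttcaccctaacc
Tiparp: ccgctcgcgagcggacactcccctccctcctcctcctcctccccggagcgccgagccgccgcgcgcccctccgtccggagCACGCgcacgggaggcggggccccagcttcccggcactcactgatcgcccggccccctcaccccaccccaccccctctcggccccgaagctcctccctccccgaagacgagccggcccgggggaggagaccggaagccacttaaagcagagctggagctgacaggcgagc
Ahrr: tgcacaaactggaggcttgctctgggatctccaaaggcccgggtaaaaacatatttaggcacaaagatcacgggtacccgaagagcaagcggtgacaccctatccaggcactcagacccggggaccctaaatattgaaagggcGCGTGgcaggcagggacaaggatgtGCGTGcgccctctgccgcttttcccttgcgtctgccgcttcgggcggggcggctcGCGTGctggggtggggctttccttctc
The Cyp1a1 window held 1 core, 54 to 50 bases before the start. The Tiparp window held 1, on the opposite strand, 170 to 166 bases before the start. The Ahrr window held 3, at 107 to 103, 82 to 78 and 27 to 23 bases before the start. Cyp1b1 had 1 core on the opposite strand, 76 to 72 bases before its start, and Nqo1 had none. At least 1 core was present in 28.2% of 32851 promoter windows of this length, and at least 3 in 2.77%. The core TGACNNNGC of the antioxidant response element, which the stress factor NRF2 binds, was in 10.2% of the windows and in none of these 5. Only these 250 bases were searched, so elements lying further upstream would not be seen. A match is a run of letters and not a bound site, and the arrays measured RNA and no binding.

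Signals below are the deposited values, read as log2. The sources used here state neither the base nor an offset, so fold changes hold only on that reading, while the tests do not depend on it. All arrays held the same sorted values, whose median was -0.63 and whose extremes were -5.88 and 8.31, and a signal under that median is called dim here. Markers of alveolar type 2, alveolar type 1 and ciliated cells were set beside the tissue label. Of these, 9, 8 and 8 genes were bright enough to be tested. In PF68 day 1 their mean log2 signals were 6.42 and 6.35, 5.53 and 5.53, and 1.28 and 1.40. Being bright enough does not by itself mark lung, since 11 skeletal muscle and 7 adipocyte genes were so too. Differences are given with the standard error (SE) of a limma fit to all 8 arrays, and a gene was called when its Benjamini-Hochberg adjusted p over 13853 genes was under 0.05. RNA integrity was read from the beta-actin probe sets, whose 3′ end exceeds the 5′ end more when transcripts are broken. This excess averaged 2.02 (PF68) and 1.34 (SWCNT) on day 1, and 3.27 and 2.97 on day 7, with SDs from 0.02 to 0.04 over the 2 arrays of a group. This sign of RNA integrity therefore moved with treatment and, more, with day. Bacterial hybridization spikes differed by 0.22 between SWCNT and PF68 on day 1 and by -0.53 on day 7; when the arrays were scaled to them, the median of all genes differed by -0.24 and 0.55, against -0.02 and 0.02 as deposited.

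Cyp1a1 was lower in SWCNT than in PF68 lungs on both days. On day 1 its log2 signal was 1.76 and 1.77 on the PF68 arrays and -0.16 and 0.15 on the SWCNT arrays. On day 7 it was 3.70 and 3.64 on the PF68 arrays and 1.38 and 1.18 on the SWCNT arrays. Both SWCNT arrays lay below both PF68 arrays of their day, and the SWCNT arrays of day 7 lay below the PF68 arrays of day 1 as well. The day 1 difference was -1.76 ± 0.15 (limma, adjusted p = 0.00756), a 3.40-fold lower signal. The day 7 difference was -2.39 ± 0.15 (adjusted p = 0.00898), a 5.22-fold lower signal. Among falls, Cyp1a1 ranked 58 on day 1 and 13 on day 7 out of 13853 genes. The fall on day 7 was larger by 0.62 ± 0.21 (difference of differences -0.62, 95% interval -1.13 to -0.12), but this did not pass the threshold (adjusted p = 0.17), and with the arrays scaled to the spikes its sign turned to 0.12. In bulk lung RNA, fewer cells of a type and less RNA per cell cannot be told apart.

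The sign of these 2 falls held in every alternative, and their calls depended on the arrays used. With only the 4 arrays of day 7 the fall on that day was not called (limma, adjusted p = 0.203). That setting called 0 of 13853 genes. On day 1 the call was lost without PF68 array 1 (adjusted p = 0.0773), without PF68 array 2 (0.0786), without SWCNT array 1 (0.0585) and with only the 4 arrays of that day (0.0663); the difference stayed between -1.98 and -1.61. On day 7 leaving out 1 array kept the call only when that array was from SWCNT day 1, and the difference stayed between -2.48 and -1.86.

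**Figure D1:**
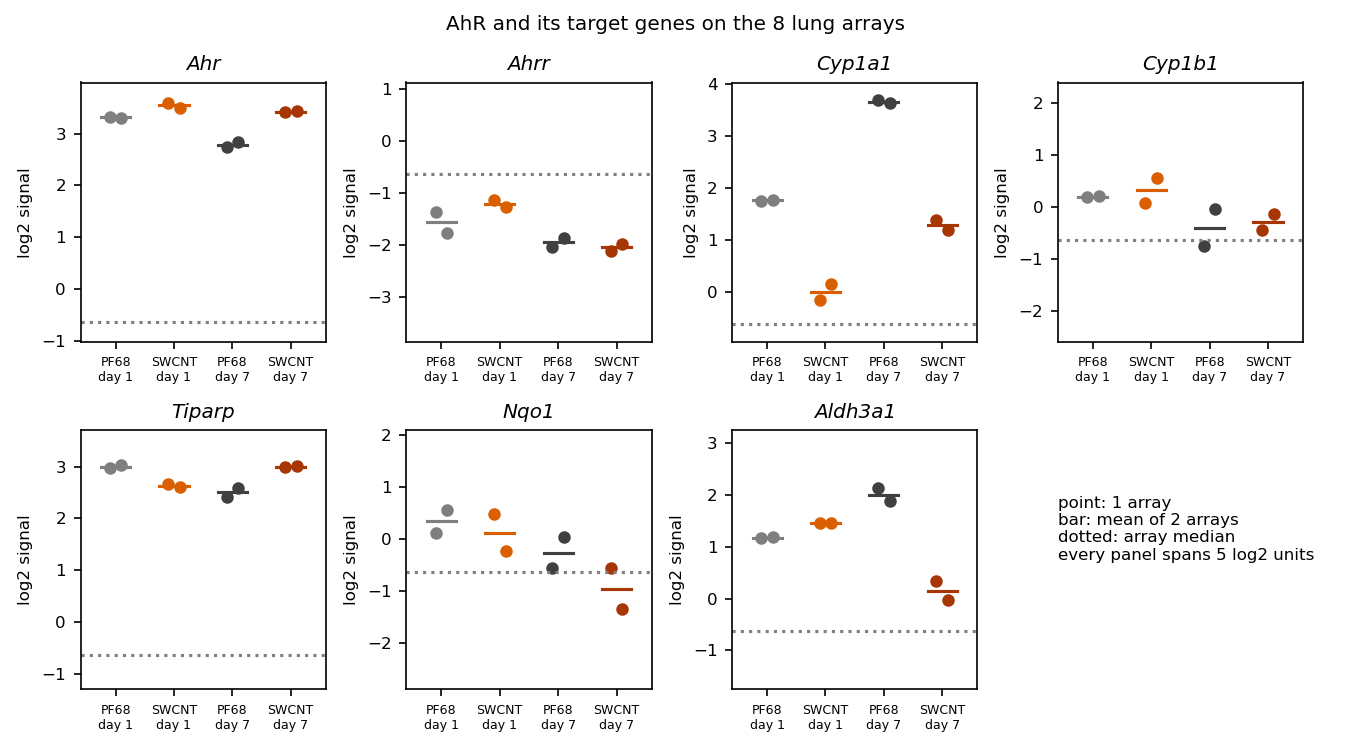
Log2 signal of each gene on the 8 arrays, in panels that each span 5 log2 units; a point is 1 array, a bar the mean of 2 arrays, and the dotted line the array median of -0.63. Cyp1a1 is lower in SWCNT than in PF68 on both days, Aldh3a1 is lower on day 7 (0.34 and -0.03 against 2.13 and 1.88), and Ahrr lies under the median on every array.

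The receptor gene did not follow Cyp1a1. The log2 signal of Ahr was 3.33 and 3.30 in PF68 and 3.60 and 3.50 in SWCNT on day 1. On day 7 it was 2.74 and 2.84 in PF68 and 3.41 and 3.43 in SWCNT. The SWCNT arrays lay above the PF68 arrays on both days, and the lowest arrays of all were the PF68 arrays of day 7. Ahr rose on day 7, by 0.64 ± 0.11 (limma, adjusted p = 0.0486; 1.55-fold), while the day 1 difference of 0.23 ± 0.11 was not called (adjusted p = 0.308). The call on day 7 was close to the threshold: it passed in 3 of 10 alternatives and in none of the 8 fits that left out 1 array (adjusted p between 0.0903 and 0.191), although the difference stayed positive, between 0.59 and 1.16. The other Ahr probe set was dim on 7 of 8 arrays and was not tested. Its signal was -0.91 and -0.91 in PF68 day 1, 0.24 and -0.78 in SWCNT day 1, -2.11 and -0.91 in PF68 day 7 and -1.69 and -1.50 in SWCNT day 7, with overlapping groups on day 7.

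Ahrr, the repressor that competes with the receptor for ARNT, was below the array median on every array and was not tested. Its only probe set read -1.37 and -1.77 in PF68 day 1 and -1.14 and -1.27 in SWCNT day 1. On day 7 it read -2.03 and -1.86 in PF68 and -2.12 and -1.99 in SWCNT. The groups did not overlap on day 1 (a difference of 0.36) and overlapped on day 7 (-0.10). A dim signal has no detection flag here, so it is not read as absence of the transcript.

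Aldh3a1, an aldehyde dehydrogenase of epithelia that the receptor induces, was lower in SWCNT lungs on day 7. Its signal was 1.17 and 1.19 in PF68 and 1.46 and 1.45 in SWCNT on day 1. On day 7 it was 2.13 and 1.88 in PF68 and 0.34 and -0.03 in SWCNT. The SWCNT arrays thus lay slightly above the PF68 arrays on day 1 and below all other arrays on day 7. The day 7 fall was -1.85 ± 0.16 (limma, adjusted p = 0.018), 3.61-fold lower and 49th among the falls, and the day 1 difference of 0.28 ± 0.16 was not called (adjusted p = 0.43). The difference between the days was -2.13 ± 0.23 (adjusted p = 0.0225), the only one of the 6 tested genes called in that comparison. Without any 1 array neither was called, with adjusted p between 0.0618 and 0.12 for day 7 and between 0.0588 and 0.123 for the difference between days, while the values stayed between -2.04 and -1.67 and between -2.32 and -1.95. The difference between days was -1.39 with spike scaling (adjusted p = 0.0089), and its call was also lost with no filter (0.0531) and with the replicate block (0.0555). The day 7 call was lost with only the 4 arrays of that day (limma, adjusted p = 0.203) and with the replicate block (0.0535).

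Tiparp, which ADP-ribosylates and so silences the receptor, had no call between treatments. Its brightest probe set read 2.96 and 3.04 in PF68 and 2.66 and 2.61 in SWCNT on day 1. On day 7 it read 2.42 and 2.59 in PF68 and 2.99 and 3.01 in SWCNT. The groups did not overlap on either day, with SWCNT below PF68 on day 1 and above it on day 7. The differences were -0.37 ± 0.11 on day 1 (limma, adjusted p = 0.168) and 0.50 ± 0.11 on day 7 (adjusted p = 0.0784), and their difference of 0.86 ± 0.16 had an adjusted p of 0.056. With the arrays scaled to the spikes the day 7 difference was 1.02 (adjusted p = 0.00595), in a setting that called 42.5% of all genes and moved their median to 0.55.

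The other Tiparp probe sets did not give the same picture. That of the second highest mean read 1.20 and 1.15 in PF68 day 1 and 0.67 and 0.58 in SWCNT day 1, then 0.27 and -0.19 in PF68 day 7 and 0.15 and -0.09 in SWCNT day 7. It had the same sign on day 1 (-0.55) and no separation on day 7 (-0.01, adjusted p = 0.985 in a fit of every probe set). The third differed by 0.31 on day 1 and by -0.17 on day 7, opposite in sign to the brightest on both days. The identifier of the brightest probe set ends in _s_at, which marks probes that can bind related transcripts. The mean of the 3 probe sets differed by -0.20 on day 1 and by 0.10 on day 7.

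Cyp1b1 and Nqo1 were near the array median and did not separate the treatments. Cyp1b1, which oxidizes polycyclic hydrocarbons and steroids, read 0.19 and 0.21 in PF68 day 1, 0.08 and 0.55 in SWCNT day 1, -0.76 and -0.05 in PF68 day 7 and -0.44 and -0.13 in SWCNT day 7. The groups overlapped on both days, and the differences were 0.12 ± 0.28 on each (95% intervals -0.58 to 0.81 on both days; limma, adjusted p = 0.869 and 0.843). Its other 2 probe sets were below the median on all arrays. Nqo1, a quinone reductase driven by both AhR and NRF2, read 0.12 and 0.56 in PF68 day 1, 0.48 and -0.22 in SWCNT day 1, -0.56 and 0.03 in PF68 day 7 and -0.55 and -1.35 in SWCNT day 7. Its groups overlapped on both days. The differences were -0.22 ± 0.39 (adjusted p = 0.823) and -0.69 ± 0.39 (adjusted p = 0.351; 95% interval -1.65 to 0.28), an interval wide enough to hold both no change and a fall as large as 1.65.

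Counted together, none of the 6 tested genes was higher and 1 (Cyp1a1) was lower on day 1, where 2.17% of all genes were called; 5 were not called. On day 7 Ahr was higher, Cyp1a1 and Aldh3a1 were lower and 3 were not called, where 2.18% of all genes were called. In the difference between days 1 was called, beside 2.35% of all genes. The medians of the 6 differences were -0.05 on day 1 and -0.29 on day 7, against -0.02 and 0.02 over all genes. The genes did not move as 1 group: on day 7 the values ran from -2.39 for Cyp1a1 to 0.64 for Ahr.

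**Figure D2:**
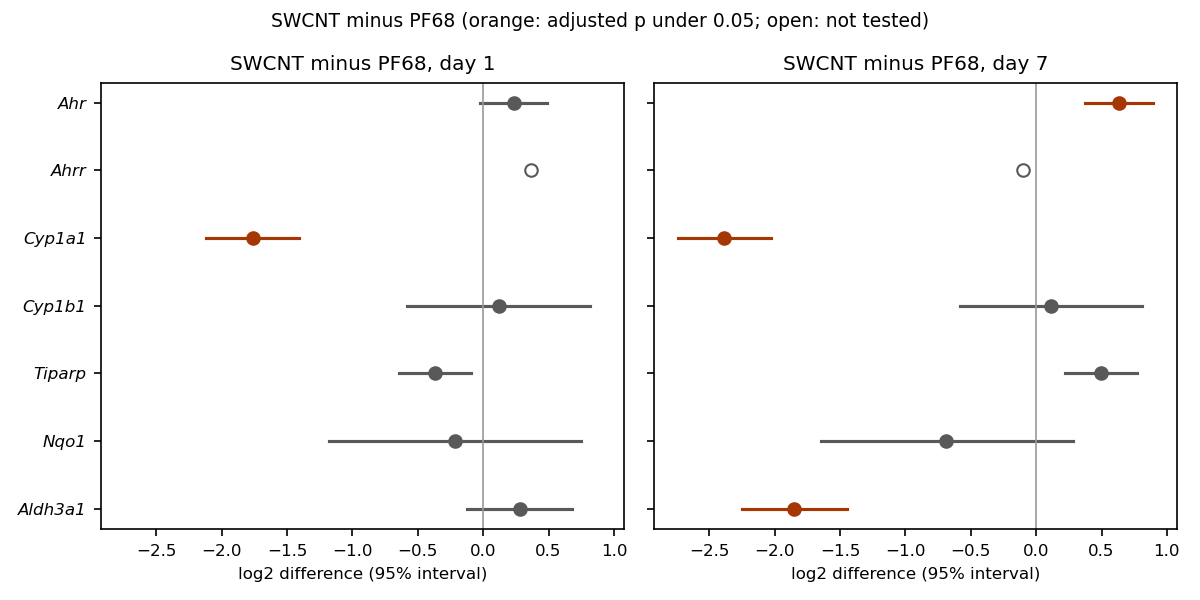
Log2 difference of SWCNT minus PF68 for each gene on day 1 and day 7, with its 95% interval; orange marks an adjusted p under 0.05 and the open circle Ahrr, which was not tested. Cyp1a1 is the only gene marked on both days (-1.76 and -2.39), and Aldh3a1 (-1.85) and Ahr (0.64) are marked on day 7.

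**Figure D3:**
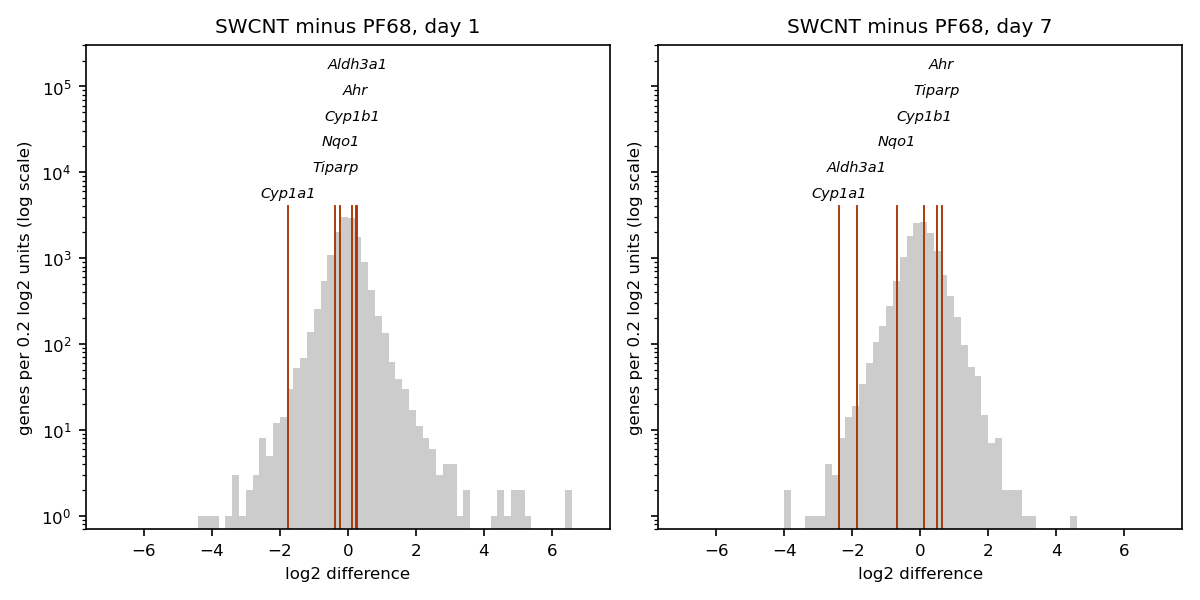
Number of genes (log scale) by log2 difference of SWCNT minus PF68 in steps of 0.2, over 13853 genes, with vertical lines at the 6 tested genes. Cyp1a1 lies in the left tail on both days and Aldh3a1 on day 7 (-1.85), while Cyp1b1 lies near the centre on both (0.12).

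The genes also changed between the days under PF68 alone. Cyp1a1 rose by 1.90 ± 0.15 from day 1 to day 7 (limma, adjusted p = 0.00609; 3.74-fold), and Aldh3a1 by 0.83 ± 0.16 (adjusted p = 0.0242). Ahr fell by 0.52 (-0.52 ± 0.11, adjusted p = 0.0254) and Tiparp fell by 0.50 (-0.50 ± 0.11, adjusted p = 0.0339). In the fit of every probe set the Tiparp probe sets differed by -0.50 (adjusted p = 0.0567), -1.14 (0.0226) and 0.19 (0.747), in order of their means, and their mean by -0.48 (adjusted p = 0.0724). So 4 of 6 were called in this comparison, where 17.7% of all genes were called. Cyp1b1 (-0.60, adjusted p = 0.197) and Nqo1 (-0.61, adjusted p = 0.329) were not called. Leaving out 1 array ended the Tiparp call whichever array it was, and the Ahr call except for either SWCNT day 1 array. It ended the Cyp1a1 call for either PF68 day 1 array (adjusted p = 0.061 and 0.0681), and the Aldh3a1 call for these 2 arrays and for PF68 day 7 array 1. Scaled to the spikes, which moved the median of all genes to -0.56 and called 42.8% of them, Aldh3a1 differed by 0.23 and was not called (adjusted p = 0.281), and Cyp1b1 differed by -1.20 and was called (0.0223). Cyp1a1 then differed by 1.31, Ahr by -1.12, Tiparp by -1.09 and Nqo1 by -1.20 (adjusted p = 0.0609).

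Under SWCNT, Cyp1a1 rose by 1.28 ± 0.15 between the days (adjusted p = 0.00776) and Aldh3a1 fell by 1.31 (-1.31 ± 0.16, adjusted p = 0.00887). These were 2 of 6, where 16.3% of all genes were called. Ahr (-0.12), Tiparp (0.37), Cyp1b1 (-0.60) and Nqo1 (-1.08 ± 0.39, adjusted p = 0.118) were not. The Cyp1a1 call was lost without either SWCNT day 7 array (adjusted p = 0.0534 and 0.0552), and the Aldh3a1 call without either SWCNT day 1 array or without SWCNT day 7 array 2 (adjusted p between 0.0526 and 0.0552). By its values Cyp1a1 was higher on day 7 than on day 1 in both treatments. These comparisons share arrays with those between treatments, and the beta-actin 3′ minus 5′ signal rose over the same days by values larger than those between treatments; its part in the changes was not tested.

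Genes that work with the receptor were then examined. This list and the gene lists below were chosen with earlier results of these data known. Their counts are therefore not independent evidence, also where the share over all genes is given beside them. Among 11 tested of 15 listed partners, coactivators and chaperones, none was called on day 1 or day 7 in limma (3 and 4 had an unadjusted p under 0.05), with medians of -0.15 and 0.11. Arnt, the partner the receptor needs to bind DNA, differed by -0.20 ± 0.16 on day 1 (adjusted p = 0.571) and -0.40 ± 0.16 on day 7 (adjusted p = 0.206). Its further probe sets ran from -0.42 to 0.40 on day 1 and from -0.02 to 0.34 on day 7.

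Further genes known to respond to AhR gave mixed values. None of 17 tested of 26 listed was called on day 1 in limma (4 at an unadjusted p under 0.05). On day 7, 2 rose, 2 fell and 13 were not called, with a median of 0.00 (-0.0027), where 2.18% of all genes were called. Lypd2, a small surface protein of epithelia, fell by 1.62 (-1.62 ± 0.17, adjusted p = 0.0246). Gsta2, a glutathione transferase, fell by 1.49 (-1.49 ± 0.20, adjusted p = 0.0362). The larger rise, of Serpinb2, an inhibitor of plasminogen activators (2.51 ± 0.41, adjusted p = 0.049), was measured against a dim signal. Its means were -1.50, -1.53 and -2.35 in PF68 day 1, SWCNT day 1 and PF68 day 7, all under the array median, and 0.16 in SWCNT day 7, the group through which it passed the filter. Nfe2l2, which encodes NRF2, rose by 0.60 ± 0.10 (adjusted p = 0.0484), with 0.35 in its other probe set. Cyp1a2, the close relative of Cyp1a1, was not bright enough to be tested.

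The NRF2 battery, which shares Nqo1 with the receptor, held 15 tested genes of 19 listed. Only Gstm1, a glutathione transferase, was called: it rose by 0.71 ± 0.11 on day 1 (adjusted p = 0.0451) and fell by 0.79 on day 7 (-0.79 ± 0.11, adjusted p = 0.0394). Its 3 further probe sets ran from -0.24 to 0.29 on day 1, and from -0.83 to -0.36 on day 7. The medians were 0.09 on day 1 and 0.12 on day 7, where 2.17% and 2.18% of all genes were called. Hmox1, the stress-induced haem oxygenase, differed by -0.36 ± 0.14 on day 1 (adjusted p = 0.249) and 0.02 ± 0.14 on day 7 (adjusted p = 0.952).

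Other cytochrome P450 enzymes and aldehyde dehydrogenases of the lung included calls in both directions. Of 15 tested, 1 rose and 2 fell on day 1, and 3 fell on day 7, when the median was -0.39. Over all genes 2.17% were called on day 1 and 2.18% on day 7. Cyp2e1, which oxidizes ethanol and small solvents, rose by 2.71 ± 0.13 on day 1 (adjusted p = 0.00115) and fell by 1.58 on day 7 (-1.58 ± 0.13, adjusted p = 0.0147); adipocyte markers had medians of 1.64 and -1.07 on these days. Cyp2f2, the P450 of club cells, fell by 0.59 on day 1 (-0.59 ± 0.10, adjusted p = 0.0498) and differed by -0.42 ± 0.10 on day 7 (adjusted p = 0.0852). Aldh1a7 fell by 0.73 on day 1 (-0.73, adjusted p = 0.0326) and by 0.71 on day 7 (-0.71, adjusted p = 0.0392). Aldh1a1, a retinal dehydrogenase, fell by 0.75 on day 7 (-0.75 ± 0.12, adjusted p = 0.044).

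The PARP family, to which Tiparp belongs, had 12 tested of 13 listed. On day 1 Parp14 (-1.35 ± 0.16), Parp12 (-1.13 ± 0.16) and Parp9 (-1.07 ± 0.10) fell (adjusted p between 0.0114 and 0.0382), all 3 being known interferon-induced genes. Of 20 tested of 22 listed interferon-induced genes, 16 fell on day 1, where 2.17% of all genes were called. The mean log2 signal of the 20 was 3.21 and 3.20 in PF68 day 1 and 0.81 and 0.68 in SWCNT day 1. On day 7 it was 1.05 and 1.12 in PF68 and 1.05 and 0.96 in SWCNT. PF68 day 1 thus stood above every other group. Of the PARP genes only Parp4 was called on day 7, higher by 1.47 ± 0.19 (adjusted p = 0.0362), where 2.18% of all genes were called. Cyp1a1 expression is known to vary with the time of day, and the hour of dissection is not given in the sources used here. Of 17 clock genes, Nr1d1 rose by 0.98 ± 0.14 (adjusted p = 0.0352) and Dbp fell by 0.99 (-0.99 ± 0.14, adjusted p = 0.0357; -0.19 in its other probe set) on day 1. None was called on day 7 in limma (6 at an unadjusted p under 0.05). Between the days 7 fell under PF68, where 17.7% of all genes were called, and 3 fell under SWCNT, where 16.3% were. Their part in the Cyp1a1 values was not tested.

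**Figure D4:**
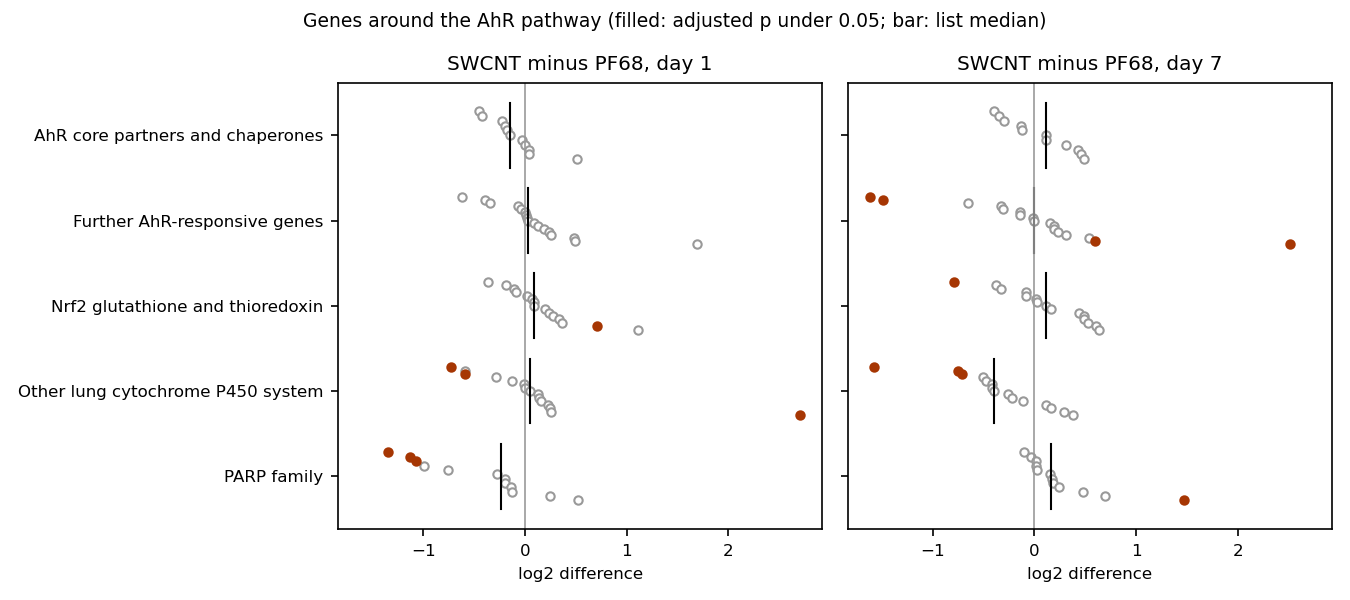
Log2 difference of SWCNT minus PF68 on each day for the tested genes of 5 lists around the receptor; filled points have an adjusted p under 0.05 and the vertical bar is the list median. Most points are open on both days, and the lowest median is that of the other P450 genes on day 7 (-0.39).

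Markers of the cells in which Cyp1a1 is known to be expressed were examined next. Of 10 tested of 11 listed club cell genes, 3 fell on day 1 (Cckar, Aldh1a7 and Cyp2f2) and 2 on day 7 (Aldh1a1 and Aldh1a7), where 2.17% and 2.18% of all genes were called. The others were not called and went in both directions: Scgb1a1, the defining secretoglobin, differed by -0.11 and 0.11 on the 2 days, and Scgb3a1 by 0.61 on day 1 (adjusted p = 0.0858) and 0.02 on day 7. The mean log2 signal of the 10 genes was 5.90 and 5.87 in PF68 day 1, 5.59 and 5.61 in SWCNT day 1, 6.01 and 6.06 in PF68 day 7 and 5.76 and 5.75 in SWCNT day 7. This mean was lower with SWCNT on both days, and the summed linear level was 1180 to 1190 in PF68 day 1, 1050 to 1100 in SWCNT day 1, 1300 to 1350 in PF68 day 7 and 1160 to 1170 in SWCNT day 7. Of 14 endothelial genes none was called on either day in limma (7 and 5 at an unadjusted p under 0.05). Their mean was 4.50 and 4.51 in PF68 day 1, 4.59 and 4.63 in SWCNT day 1, 4.11 and 4.14 in PF68 day 7 and 4.03 and 3.99 in SWCNT day 7, slightly higher with SWCNT on day 1 and slightly lower on day 7. Their summed level was 427 to 433, 439 to 445, 369 to 376 and 322 to 330 in the same order.

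Squamous epithelium, a possible source of Aldh3a1, was examined as well. Of 13 tested markers 4 rose on day 1 and none was called on day 7, where 2.17% and 2.18% of all genes were called. The medians of their differences were 1.13 on day 1, -0.37 on day 7, 0.36 between the days under PF68 and -1.15 under SWCNT. These medians have the signs of the Aldh3a1 differences, and the part of this epithelium in them was not tested. The mean of the 13 markers was -0.84 and -0.87 in PF68 day 1 and 1.10 and 0.95 in SWCNT day 1. On day 7 it was -0.61 and -0.52 in PF68 and -0.52 and -1.09 in SWCNT. In the same order of groups the summed level was 8.47 to 12.6, 45.7 to 47.6, 16.8 to 21.8 and 8.15 to 18.4. Outside SWCNT day 1 the mean was near or under the array median, so markers could pass the filter through that group alone. Hepatocytes, rich in P450 enzymes, had 5 of 9 listed markers tested, while 3 were not bright enough to be tested. Of the 5, 1 was called on each day, Cyp2e1.

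Markers of fat and of skeletal muscle moved between the groups as well. Of 7 tested of 10 listed adipocyte genes, 4 rose on day 1 and none fell (median 1.64), 1 fell on day 7 (median -1.07), 2 rose between the days under PF68 (median 0.74) and all 7 fell under SWCNT (median -1.46). Over all genes 2.17%, 2.18%, 17.7% and 16.3% were called in these comparisons, in that order. The adipocyte medians have the signs of the Aldh3a1 differences (0.28, -1.85, 0.83 and -1.31) and of those of Cyp2e1 on the 2 days. The mean log2 signal of the 7 genes was 0.74 and 0.95 in PF68 day 1, 2.68 and 2.62 in SWCNT day 1, 1.56 and 1.65 in PF68 day 7 and 0.72 and 0.58 in SWCNT day 7. Their summed level was 22.7 to 24.3, 104 to 107, 39.3 to 39.3 and 22.8 to 25.2, and 1 further gene of the list was not bright enough to be tested. Adipoq, the defining adipocyte hormone, averaged -0.16, 2.74, 0.92 and -0.15 in the same order. Of 11 tested of 12 skeletal muscle genes, 9 rose on day 1 (median 3.20), where 2.17% of all genes were called. None was called on day 7 in limma (2 at an unadjusted p under 0.05). In the same order of groups their summed levels were 6.20 to 7.39, 102 to 107, 6.38 to 8.43 and 6.64 to 7.50. The mean log2 signal of the 11 was 2.86 and 2.79 in SWCNT day 1 and under the array median on every other array. The genes could thus pass the filter through SWCNT day 1 alone, so their day 1 count is not independent of it. The part of these cell types in the Cyp1a1, Aldh3a1 and Cyp2e1 results was not tested.

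**Figure D5:**
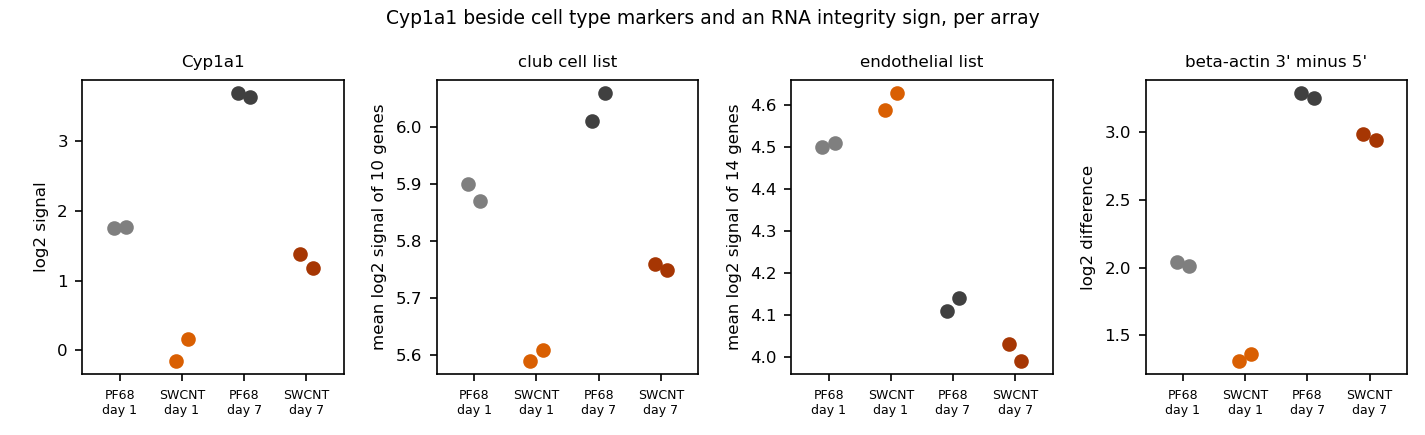
Per array, from left to right: log2 signal of Cyp1a1, mean log2 signal of 10 club cell genes, mean log2 signal of 14 endothelial genes, and the beta-actin 3′ minus 5′ difference; a point is 1 array. Cyp1a1 and the club cell mean are lower with SWCNT on both days (the latter 5.59 and 5.61 against 5.90 and 5.87 on day 1), and the endothelial mean is lower with SWCNT on day 7 only.

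The pattern of Cyp1a1 over the 8 arrays was set against that of every tested gene by the root mean squared difference of values centred on each gene's mean, where Cyp1a1 itself had an SD of 1.41. The closest genes were H2-DMb2, an MHC class II chaperone subunit (0.43), 4930506C21Rik (0.57), Alb, serum albumin (0.58), Sema4f, a semaphorin (0.60), and Runx1t1, a transcriptional corepressor (0.62). H2-DMb2 differed by -1.45 on day 1 (limma, adjusted p = 0.0518) and by -1.72 on day 7 (adjusted p = 0.0395). Sema4f fell by 1.57 on day 1 (-1.57, adjusted p = 0.00892) and was not called on day 7 (-0.72, adjusted p = 0.0623). Within the AhR list the distances from Cyp1a1 were larger, from 1.19 for Aldh3a1 to 1.60 for Ahr. The other tested genes of that list had SDs of only 0.24 to 0.73. They could not lie close to Cyp1a1 whatever their pattern, so the size of a distance alone does not show how alike the patterns are. The group means of Ahr ran in the reverse order of those of Cyp1a1. For PF68 day 1, SWCNT day 1, PF68 day 7 and SWCNT day 7 they were 3.31, 3.55, 2.79 and 3.42. Those of Cyp1a1 were 1.76, -0.000526, 3.67 and 1.28. The distance is in log2 units, so genes that vary little lie close to each other whatever their pattern: that of Ahr and Tiparp was 0.26, where their own SDs were 0.31 and 0.24. These distances describe 8 arrays in 4 groups and carry no test.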

How the data were processed

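The authors' deposited table held 1 value per probe set and array, read here as log2 signal; the submitters' processing notes name RMA without a version, and no source used here states the base of the logarithm or an offset. Of 45101 probe sets, 64 controls and 8 with a missing value were left out. A table of the platform's annotation gave 1 gene symbol to 34939 probe sets, several to 931 and none to 9159; 34735 matched a RefSeq gene ID (GRCm38.p6). A probe set passed if its value reached the array median on at least 2 of 8 arrays, which left 13853 genes, each represented by the passing probe set of 1 symbol with the highest mean.

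The 4 group means (PF68 or SWCNT, day 1 or day 7, 2 arrays each, as the labels give them) were fitted over all 8 arrays with limma 3.58.1 (lmFit and eBayes) in R 4.3.3, with 4 residual and 1.81 prior degrees of freedom. Of 5 comparisons, each had its p-values adjusted over all genes by the Benjamini-Hochberg method at 0.05; intervals are 95%. Replicate correlations (Pearson, over probe sets) were 0.914 to 0.94 within groups and 0.891 to 0.931 between them. Replicate numbers did not pair the samples: deviations of same-numbered arrays from their group means correlated between -0.00597 and 0.0115.

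The AhR genes and all gene lists were chosen with earlier results of these data known. From each list the called genes were named, at most 4 per list and comparison, with some uncalled genes of known role (Arnt, Hmox1) named after their values were seen; the genes closest to Cyp1a1 were the 5 of smallest distance. Genes without a probe set of their single symbol were not analysed here. The fit was tested on simulated data. Alternatives covered normalization, filter, probe set choice, variance model, array weights, replicate block and arrays left out. Figures were drawn with matplotlib 3.10.9.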

Additional observations from a re-analysis of the deposited data

Results flagged for a closer look

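The effect of SWCNT on Aldh3a1 differed between the days: the day 7 difference minus the day 1 difference was -2.13 on the log2 scale (SE 0.23; limma, adjusted p = 0.0225), from 0.28 on day 1 to -1.85 on day 7. Both SWCNT arrays lay above both PF68 arrays on day 1 and below both on day 7.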

How the results depend on the processing

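Values are those of the 6 tested AhR genes; calls of other named genes were not recomputed. With 2 arrays per group, calls depended on pooling the spread over all 8 arrays more than signs did: of the recomputed differences 427 kept sign and side of the threshold, 82 lost a call, 10 gained one and 15 changed sign. The 427 include differences that were not called as reported and stayed uncalled, so they do not measure how stable the calls were. With only the 4 arrays compared, 0 genes were called in limma on day 1, on day 7, under PF68 and under SWCNT (2, 4, 4 and 3 at an unadjusted p under 0.05). Leaving out 1 array gave 0 to 1 called genes on day 1, 0 to 1 on day 7, 0 to 0 for the difference between days, 0 to 3 under PF68 and 0 to 2 under SWCNT. For the difference between days, against 1 as reported, the count was 3 with spike scaling, 2 with a filter at 4 arrays, 2 with a trended robust variance, 0 without a filter (3 at an unadjusted p under 0.05) and 0 with the replicate block (3). Over all genes these settings called 44.2%, 4.1%, 9.98%, 0.275% and 0.217% in that order, against 2.35% as reported. On day 1 the trended robust variance gave 2, beside 9.05% of all genes. Under PF68 no filter gave 2, beside 7.73% of all genes. The replicate block left 1 gene called on day 7, against 3, beside 0.108% of all genes.

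Spike scaling turned the sign of Cyp1b1 on day 1 (-0.10), of Cyp1a1 (0.12), Cyp1b1 (0.74) and Nqo1 (0.27) in the difference between days, and of the Ahr change between days under SWCNT (0.0283). The mean of passing probe sets turned that of Tiparp (-0.173). Leaving out 1 array took Cyp1b1 from -0.12 to 0.35 on day 1, from -0.24 to 0.47 on day 7 and from -0.36 to 0.35 between days, and Nqo1 from -0.57 to 0.14 on day 1. The cause was not tested. Over all genes, with 300, 302, 325, 2455 and 2257 calls as reported, the settings gave 57 to 1254 on day 1, 0 to 5893 on day 7, 30 to 6127 between days, 0 to 5928 under PF68 and 7 to 3411 under SWCNT. Leaving out 1 array gave 30 to 189, 0 to 18, 3 to 74, 0 to 1841 and 91 to 2319.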
